A study of Mus musculus with 12 samples.

Results

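Gipr encodes the receptor of glucose-dependent insulinotropic polypeptide, a gut hormone, and its transcript events are described here across 12 RNA-sequencing libraries of BV-2 cells, a mouse line derived from immortalised microglia. It is 1 of 14275 genes listed in the deposited files, and all lines that carry its name were taken, with partner lines of an event and repeated lines left out. The gene was chosen because it had many more events in LPS+NMN than in control libraries, so the difference between those groups is given as a description, with no test. Other comparisons that use either group are not independent of that choice. The libraries fall into 4 groups of 3: LPS+NMN (lipopolysaccharide, a bacterial cell wall component, together with nicotinamide mononucleotide, a precursor of NAD), LPS alone, NMN alone, and control. The study was designed to compare LPS+NMN with LPS. Doses, times and culture conditions are not given in the sources used here, and no label states that replicates were grown in separate cultures, so the p-values reflect the spread among these 12 libraries, which may be technical.

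The GIP receptor belongs to the class B family of G protein-coupled receptors, whose large extracellular domain captures a peptide hormone before the membrane-spanning bundle responds. It couples to the stimulatory G protein, which raises cyclic AMP, and is best known for strengthening insulin release from pancreatic beta cells and for acting on fat and bone. A retained intron is an intron that stays in the transcript, and an alternative exon end is a different splice site of the same exon; either can shift the reading frame and so change what a transcript can encode.

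Each file is a catalogue of events without read counts, expression levels or depth. An event is a first exon, a last exon, a retained intron, an alternative exon end or a skipped exon, and its number per gene and library is the value used. A larger number means that more events were listed, and it is not an expression level. It is not a number of transcript forms either. The same intron can be listed in an exact and an approximate form, and an exon with annotated ends can be listed among alternative exon ends. Libraries listed between 11911 and 12246 genes and between 50784 and 55787 events. The labels give the cell type as macroglia, whereas BV-2 is a microglial line; of 12 microglial markers all 12 were listed, 9 of them in every library. P2ry12, a receptor of resting microglia, was absent from all 9 treated libraries and from control replicate 1. C1qa was in every control library and in NMN replicate 2. Cx3cr1 went the other way: it was in LPS+NMN replicate 3, LPS replicates 1 and 3 and NMN replicate 2, and in no control library. The summed events of these markers ranged from 33 to 37 in LPS+NMN, 34 to 38 in LPS, 31 to 39 in NMN and 35 to 42 in control libraries. Of 5 neuronal markers only Tubb3 was listed, of 5 astrocyte markers 2, of 4 adipocyte markers 3 and of 5 pancreatic islet markers only Gcg, in NMN replicate 1. Of the adipocyte markers, Adipoq was in LPS+NMN replicate 3, Plin1 in LPS replicate 3 and control replicate 1, and Cidec in LPS replicate 2. Each had 2 events where listed and was in no other library. Of 5 oligodendrocyte markers 4 were listed, all but Mog, with sums of 8 to 12 in LPS+NMN, 8 to 11 in LPS, 8 to 12 in NMN and 12 to 14 in control libraries; their part in the Gipr result was not tested. In such bulk libraries a change in the number of cells and a change in RNA per cell cannot be told apart.

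In GENCODE M21 Gipr (ENSMUSG00000030406.7) lies on chromosome 7, from 19156061 to 19166127 on the minus strand of GRCm38, and its full-length coding transcript, Gipr-201, has 14 exons and 460 codons before the stop. RefSeq extends the gene 4121 bases further upstream, to 19170248. The positions in the files are on another mouse assembly, which is not named. With 1 offset of 266075 bases, 19 of 33 distinct exon boundaries listed for Gipr fell on annotated exon ends, and the same offset was the best for 8 of the 9 neighbouring genes listed. Event positions below are those of the files, exons are numbered as in Gipr-201, and sequences come from GENCODE M21 transcripts on GRCm38.

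The segments that the splicing events turn on are shown because they can be read against the listed boundaries. Both introns below were listed as retained and are annotated as retained in transcript Gipr-203; capitals mark the intron, and 20 bases of exon stand on each side. In exon 4, capitals mark the bases that are absent from its short form. All are on the minus strand, 5′ to 3′.
Intron 8, chr7:19160372-19160614: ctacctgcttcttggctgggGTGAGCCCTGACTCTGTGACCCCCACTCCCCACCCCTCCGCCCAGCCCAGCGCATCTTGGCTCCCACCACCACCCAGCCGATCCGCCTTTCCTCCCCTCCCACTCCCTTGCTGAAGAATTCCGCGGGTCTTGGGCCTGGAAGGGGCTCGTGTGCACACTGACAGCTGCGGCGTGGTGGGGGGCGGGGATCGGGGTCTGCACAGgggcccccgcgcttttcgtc
Intron 10, chr7:19159815-19159980: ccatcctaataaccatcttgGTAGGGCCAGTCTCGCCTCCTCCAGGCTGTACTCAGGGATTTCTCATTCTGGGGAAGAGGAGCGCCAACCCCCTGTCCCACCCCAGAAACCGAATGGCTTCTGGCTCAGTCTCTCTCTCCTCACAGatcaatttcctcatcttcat
Exon 4, chr7:19164038-19164145: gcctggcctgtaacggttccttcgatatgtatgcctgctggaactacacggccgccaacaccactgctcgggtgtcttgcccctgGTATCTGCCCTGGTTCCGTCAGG
Intron 8 has 203 bases and intron 10 has 126, and each starts with GT and ends with AG. Read on in frame from exon 8, intron 8 brings a TGA stop at its base 9, after 263 codons. Intron 10 holds no stop in frame and adds 42 codons, for 502 in all. Leaving out the last 23 bases of exon 4 gives a stop after 93 codons. Exon 4 lies in the part of the gene that encodes the extracellular domain.

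Gipr had 14, 14 and 15 events in LPS+NMN libraries, 8, 4 and 10 in LPS libraries, 4, 4 and 10 in NMN libraries and 2 in each control library. The LPS+NMN libraries lay above all other libraries, and the control libraries below all others, while LPS and NMN libraries overlapped. Means were 14.3 ± 0.577 in LPS+NMN, 7.33 ± 3.06 in LPS, 6.0 ± 3.46 in NMN and 2 in control (SD, n = 3 each). In control libraries 2 events is the smallest number a listed gene can have, namely 1 first and 1 last exon. The highest value of 10 outside LPS+NMN was reached in LPS replicate 3 and NMN replicate 3, 4 below the lowest LPS+NMN value.

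**Figure D1:**
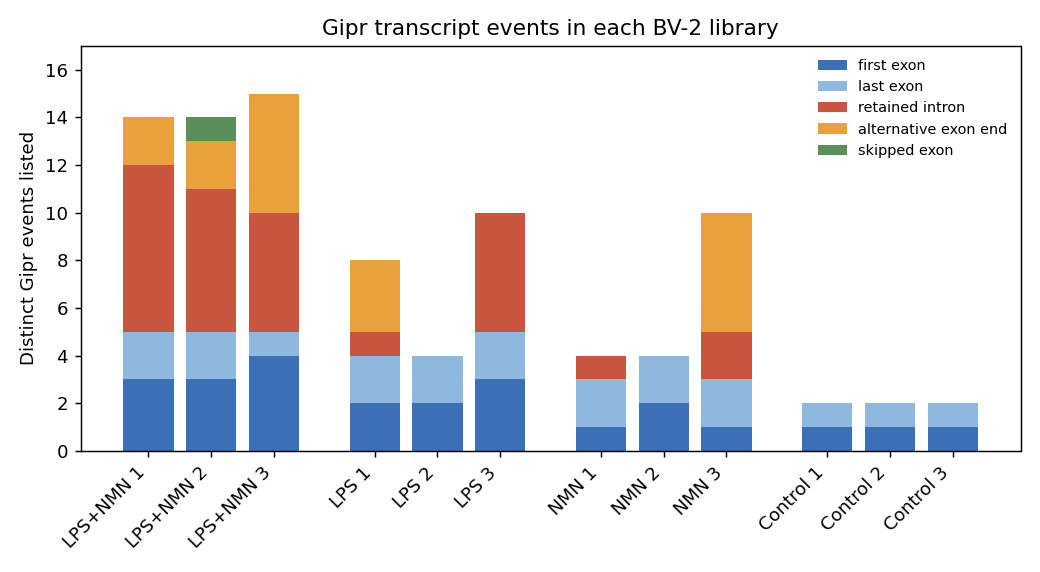
Distinct Gipr events (y axis, number) in each of the 12 libraries (x axis), stacked by event class. LPS+NMN libraries reach 14 to 15 events, LPS and NMN libraries 4 to 10, and each control library holds 1 first and 1 last exon alone.

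Among the 11671 genes tested, 2.57% had more events in every LPS+NMN library than in any control library, 0.137% (16 genes) in every LPS+NMN library than in any of the other 9, and 0.531% fewer in every control library than in any other. Gipr and Usp35, a deubiquitinase gene, were the 2 genes (0.0171%) that met both of the last conditions. As Gipr was chosen by this contrast, nothing is read from these shares. The 14 to 15 events of Gipr were reached or passed by 1.62% to 2.04% of listed genes in LPS+NMN libraries. Over all genes, LPS+NMN replicates 1 to 3 had 52563, 52826 and 53783 events, LPS replicates 52709, 51514 and 52738, NMN replicates 50784, 53313 and 54353 and control replicates 55787, 53113 and 51039. Within each treated group the library with the most events over all genes also had the most Gipr events, and the one with the fewest had the fewest, with ties, whereas control libraries had 2 each at every catalogue size. The part of catalogue size in the Gipr result was not tested within groups; adding the genes listed per library to the model, the log2 difference of LPS+NMN against control was 2.19.

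By event class, retained introns numbered 7, 6 and 5 in LPS+NMN libraries, 1, 0 and 5 in LPS libraries, 1, 0 and 2 in NMN libraries and 0 in each control library. LPS replicate 3 thus equalled the lowest LPS+NMN library. Alternative exon ends numbered 2, 2 and 5 in LPS+NMN, 3, 0 and 0 in LPS, 0, 0 and 5 in NMN and 0 in control libraries. First exons numbered 3, 3 and 4 in LPS+NMN, 2, 2 and 3 in LPS, 1, 2 and 1 in NMN and 1 in each control library. Last exons numbered 2, 2 and 1 in LPS+NMN, 2 in each LPS and NMN library and 1 in each control library. Splicing events come with a partner line for the form without the event. Whether a library with just 1 form of Gipr could list such an event was not tested. The 0 in control libraries therefore does not show that introns were spliced out there. Over all genes, retained-intron events ranged from 1214 to 1257 per library in LPS+NMN, from 1044 to 1146 in LPS, from 1068 to 1284 in NMN and from 1082 to 1198 in control, so that LPS+NMN libraries lay above all LPS and control libraries in this total and overlapped NMN. The part of that difference in the Gipr result was not tested. Of 1848 genes with any retained-intron event, 3 (Hpgds, Trmt13 and Wdr20) had more of them in every LPS+NMN library than in any other, and Gipr was not among these.

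LPS+NMN was compared with LPS to ask what NMN changes in LPS-treated cells. Gipr was chosen partly for its high LPS+NMN numbers, which the differences and shares in this paragraph draw on, so they are no independent evidence. Gipr had a log2(events + 1) difference of 0.95 ± 0.32 (SE), with every LPS+NMN library above every LPS library, as in 1.8% of genes tested. The difference did not pass over all genes (limma adjusted p = 0.822). Limma called 0 genes in either direction, with 521 (4.46% of those tested) at an unadjusted p under 0.05. Without trend and robust moderation it called 4 as higher and 2 as lower. Against NMN alone the difference of LPS+NMN was 1.24 ± 0.32 (limma adjusted p = 0.646), again without overlap, as in 1.53% of genes. Limma called 0 genes there too, with 531 (4.55%) at an unadjusted p under 0.05, and 3 in each direction without trend and robust moderation.

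LPS against control gave a difference of 1.40 ± 0.32 in log2(events + 1), with 8, 4 and 10 events in LPS and 2 in each control library; the groups did not overlap, as in 2.52% of genes. This missed the threshold over all genes (limma adjusted p = 0.163), in a comparison in which 0.257% of genes were called with more events and 0.0428% with fewer. With first and last exons alone the adjusted p was 0.0202 (limma), and with events listed in a single library left out it was 0.00677 (limma), a setting that removes last exons listed in single control libraries. Since Gipr was chosen partly for its low control numbers, which these values draw on, they are no independent evidence of a difference. NMN against control gave 1.12 ± 0.32, without overlap, as in 2.16% of genes, and did not pass (limma adjusted p = 0.36), where 0.223% of genes were called with more events and 0.00857% with fewer. NMN against LPS gave -0.28 ± 0.32 (limma adjusted p = 0.933, 95% interval -0.99 to 0.43, not adjusted), and these groups overlapped. LPS+NMN against control gave 2.35 ± 0.32, stated with no p because it chose the gene; 0.283% of genes were called with more events there. The difference between the effect of NMN with LPS and without it was -0.16 ± 0.46 (limma adjusted p = 0.942). These comparisons share libraries and are not independent of each other or of the choice of the gene.

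**Figure D2:**
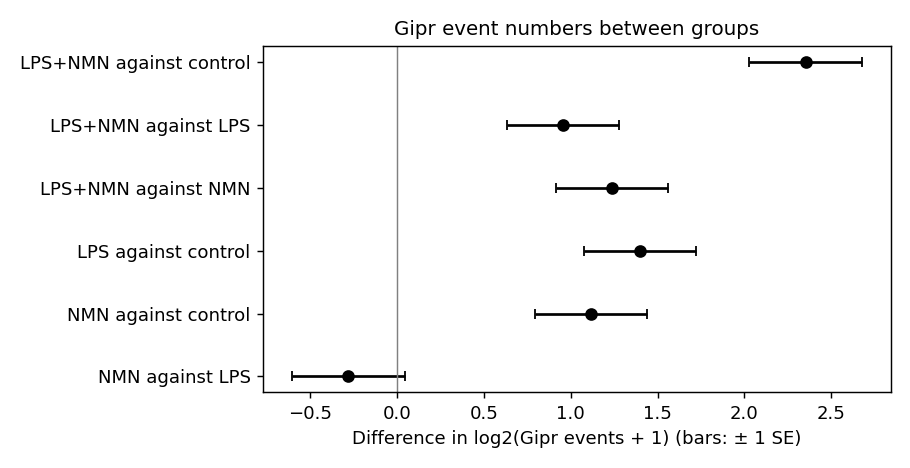
Difference in log2(Gipr events + 1) for 6 comparisons, first-named group minus second (x axis), with bars of 1 SE from limma over 12 libraries. The difference is 2.35 for LPS+NMN against control, between 0.95 and 1.40 in the next 4 comparisons, and -0.28 for NMN against LPS, where the bar crosses 0.

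In all, 35 distinct Gipr events were listed: 4 first exons, 5 last exons, 13 retained-intron events, 12 alternative-end events and 1 skipped exon. LPS+NMN libraries held 24 of them, LPS libraries 14, NMN libraries 13 and control libraries 4. No event was in all 12 libraries and 20 were in 1 library only. Of 7 events in all 3 LPS+NMN libraries, 5 were in no control library: first exons ending at exons 1 and 10, intron 7 retained, and intron 10 retained in its exact and its approximate form. Over all genes 0.477% of 141591 distinct events were in all LPS+NMN and no control libraries, a contrast that the choice of Gipr used.

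The most widely listed first exon had its 3′ end at 18902555, 2503 bases upstream of the annotated start of exon 1 and inside the span that RefSeq gives the gene. It was in 3 of 3 LPS+NMN, 3 of 3 LPS, 2 of 3 NMN and 3 of 3 control libraries, with lengths from 138 to 1043 bases. The first exon ending where annotated exon 1 ends, at 18899987, was in 3 of 3 LPS+NMN, 3 of 3 LPS, 1 of 3 NMN and 0 of 3 control libraries. Exon 1 holds no coding base, so both starts lie ahead of the coding region. In 5 of the 7 libraries this exon had exactly the annotated 66 bases, and in LPS+NMN replicates 1 and 2 it had 3609 and 3151 bases and began at the same base as the upstream first exon of that library.

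A first exon ending with exon 10, at 18893886, began in intron 9 and had 250 to 259 bases. It was in 3 of 3 LPS+NMN, 1 of 3 LPS, 0 of 3 NMN and 0 of 3 control libraries. Intron 10 was listed as retained, in its exact and its approximate form, in those 4 libraries and no other. These events share the boundary at 18893886 and are not separate observations. The Gipr listed in control replicate 2 ended upstream of this boundary. Over all genes, 0.516% of first exons were in all LPS+NMN and no control libraries. A first exon ending with exon 2, at 18898893, with 753 to 763 bases, was in LPS+NMN replicate 3 and NMN replicate 1.

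Control libraries differed from treated ones in where the listed Gipr ended. The last exon that starts with exon 13, at 18891612, and runs through intron 13 was in 3 of 3 LPS+NMN, 3 of 3 LPS and 3 of 3 NMN libraries, with lengths of 1567 to 1984 bases. In control a last exon with this start was in replicate 3 alone, with 19 bases, and it ended inside exon 13. The last exon that starts with exon 14, at 18891493, which holds the stop codon and the 3′ untranslated region, was in 2 of 3 LPS+NMN, 2 of 3 LPS, 3 of 3 NMN and 0 of 3 control libraries. Control replicate 1 instead listed a last exon of 378 bases at 18890488, inside exon 14, and control replicate 2 one of 366 bases at 18895648, inside intron 7. A last exon of 296 bases at 18893578, the start of exon 12, was in LPS replicate 3 alone. Each control library therefore listed a different end of Gipr. The last listed base was 125 bases short of the annotated end in replicate 1, 5297 in replicate 2 and 1608 in replicate 3. Depth is unknown, and whether these are transcript ends or incomplete listings was not tested. In the 9 treated libraries the end lay between 357 bases beyond and 60 bases short of the annotated end.

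**Figure D3:**
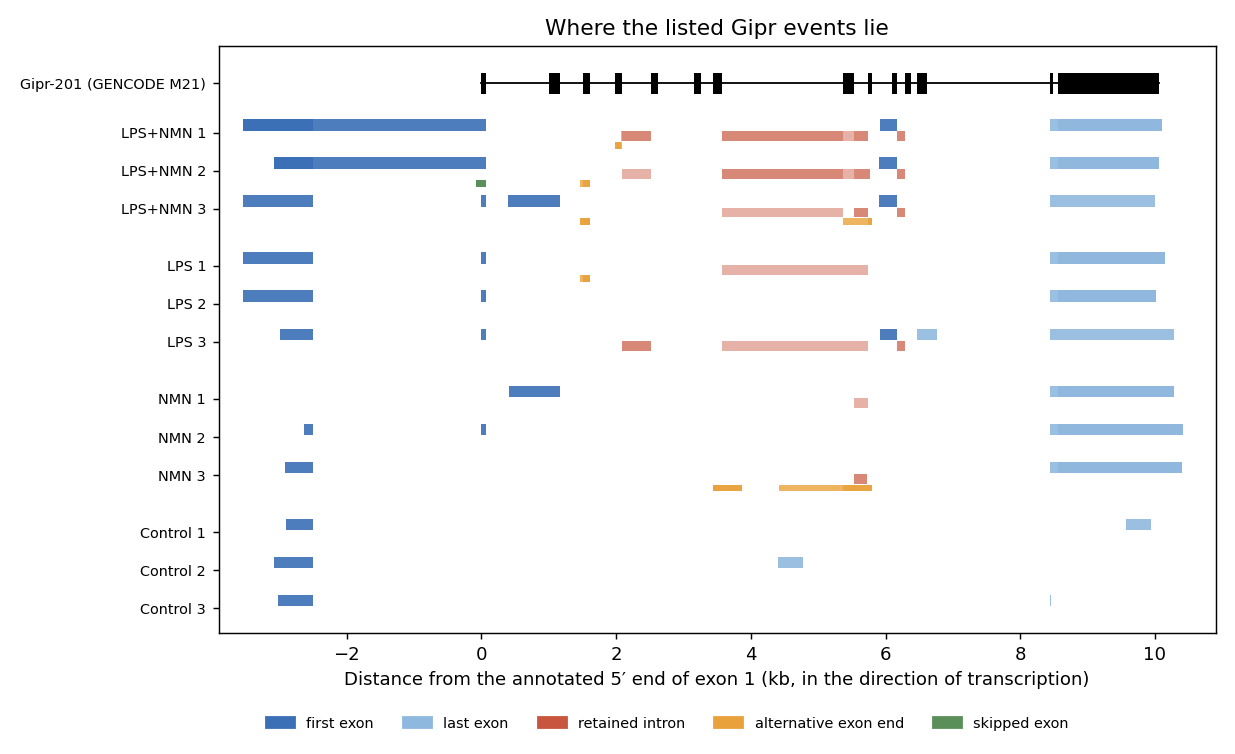
Position of each listed Gipr event (x axis, kb from the annotated 5′ end of exon 1 in the direction of transcription) in each library (rows), below the 14 exons of Gipr-201; darker shades are overlapping events. Retained-intron events lie at introns 4, 7, 8 and 10, and none was listed in the 3 control libraries, for which just 1 upstream first exon and 1 last exon each were listed.

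Events listed as retained introns fell on 4 of the 13 introns of Gipr-201, namely 4, 7, 8 and 10. The other 9 introns had no event of this class. LPS+NMN libraries had a retained event at 4, 4 and 3 of those 4 introns, LPS libraries at 2, 0 and 4, NMN libraries at 1, 0 and 1, and control libraries at 0. The Gipr listed in control replicate 2 ended inside intron 7 and did not reach the far ends of introns 7, 8 and 10. Intron 13 was not listed as retained, but it lay within the last exon starting with exon 13 in every treated library. Intron 8, which brings the stop shown in its sequence, was overlapped by a retained event in 3 of 3 LPS+NMN, 2 of 3 LPS, 2 of 3 NMN and 0 of 3 control libraries. In NMN replicate 3 that event, of 192 bases, covered part of the intron. An alternative exon end of the same library, 18894256 to 18894679, ran from exon 8 through exon 9 and so held the whole of intron 8. Intron 8 was listed on its own with annotated ends in LPS+NMN replicates 1 and 3 and NMN replicate 1, and together with intron 7 in LPS+NMN replicate 1, LPS replicate 1 and LPS replicate 3. In LPS+NMN replicate 2 both events reached 40 bases into exon 9.

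Intron 7, of 1794 bases, was retained by itself in 3 of 3 LPS+NMN libraries and in none of the other 9. Of 4640 distinct retained-intron events over all genes, 2 (0.0431%) were in all LPS+NMN libraries and no other, and 0.603% in all LPS+NMN and no control libraries. Since intron 7 was also covered by the joint event of introns 7 and 8 in LPS replicates 1 and 3, transcripts with it were listed outside LPS+NMN as well. Intron 4, of 424 bases, was retained with annotated ends in LPS+NMN replicates 1 and 2 and LPS replicate 3. Further forms of it had an acceptor 9 bases inside exon 5, in LPS replicate 3, and the donor of the short exon 4, in LPS+NMN replicate 1.

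Alternative ends lay on early exons and between exons 7 and 9. Exon 4 was listed at 108 and 85 bases in LPS+NMN replicate 1 only, and the 23 bases left out begin with GT, the donor dinucleotide, as the capitals in its sequence show. The 5 alternative ends of NMN replicate 3 lay between exons 7 and 9, and 3 of their boundaries are not annotated. LPS+NMN replicate 3 also had 5 alternative ends, 2 of them between exons 8 and 9, and 1 of these, 18894256 to 18894679, was also in NMN replicate 3.

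The skipped exon was listed in LPS+NMN replicate 2 alone. It is exon 1 in a form of 147 bases, used as an internal exon between the upstream first exon and exon 2. Of 12 splice boundaries that are not in Gipr-201, 6 have their adjoining intron bases in a GENCODE Gipr transcript, and 4 of the 6 had GT at the donor or AG at the acceptor. The 2 others, GG at a donor and AT at an acceptor, were the ends of 1 intron form of NMN replicate 3, 18894330 to 18894523.

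None of the 9 listed neighbours had more events in every LPS+NMN library than in any other library, which 0.137% of all genes had, so 0 of 9 is no result about them. Eml2, which encodes a microtubule-binding protein and starts 10294 bases upstream on the other strand, had 5, 5 and 6 events in LPS+NMN, 7, 5 and 10 in LPS, 7, 6 and 6 in NMN and 6 in each control library. Snrpd2, a core protein of spliceosomal particles, which ends 2518 bases beyond Gipr, had 2 events in every library. Qpctl, a glutaminyl cyclase of the Golgi, had 2 in each LPS+NMN and NMN library, 3, 2 and 4 in LPS and 2, 2 and 4 in control. Six5, Fbxo46, Opa3, Vasp and Ppm1n had 0 to 4 events in every library, Gpr4, an acid-sensing receptor, had 2 events in LPS+NMN replicate 2 and control replicate 3, and Gm4969 was not listed. Of these neighbours 7 could be tested, and limma called 0 in any of the 6 comparisons, with 0 at an unadjusted p under 0.05 and a smallest adjusted p of 0.672 for Fbxo46. Over all genes at most 0.283% were called in a direction and 4.46% to 7.47% had an unadjusted p under 0.05, so 0 of 7 is close to the background.

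Over the 12 libraries the gene whose log2(events + 1) was most like that of Gipr was Iigp1, an interferon-induced GTPase (Pearson r = 0.929). It was listed with 2 events in 3 of 3 LPS+NMN, 2 of 3 LPS, 1 of 3 NMN and 0 of 3 control libraries. Cd86, a costimulatory molecule of antigen-presenting cells, followed (r = 0.883), with 7, 12 and 8 events in LPS+NMN, 7, 6 and 7 in LPS, 6, 6 and 10 in NMN and 4 in each control library. Pja1, a ubiquitin ligase (r = 0.876), had 11, 9 and 7 events in LPS+NMN, 6, 6 and 8 in LPS, 7, 4 and 8 in NMN and 4 in each control library. Ctc1, of the telomere-binding CST complex, and Isg15, an interferon-induced ubiquitin-like protein, came next (r = 0.874 each), level with Oat, an aminotransferase, and were higher in every LPS+NMN library and in the third library of LPS and of NMN. These are the highest of 10598 genes over 12 points that share libraries, and are given as a description.

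**Figure D4:**
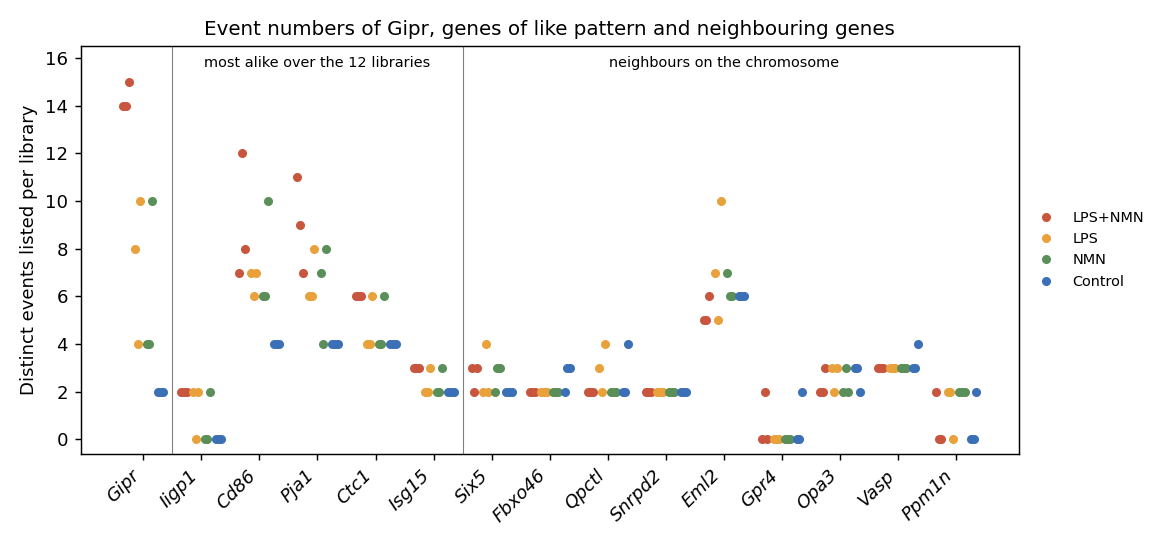
Distinct events per library (y axis) for Gipr, for the 5 genes most like it and for 9 neighbouring genes (x axis); each point is a library, coloured by group. Gipr and the 5 genes like it have no library below their 3 control libraries, and among the neighbours Snrpd2 has 2 events throughout and Eml2 5 to 10.

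Among other genes of GIP signalling, Gip, the hormone, Dpp4, the protease that inactivates it, Pcsk1 and Pcsk2, which process prohormones, Mme, and the related receptors Glp1r, Glp2r and Gcgr were not listed in any library. Of 77 genes in 6 lists around the receptor 59 were listed and 50 tested, and limma called 0 in either direction in each of the 6 comparisons, with 2 to 6 at an unadjusted p under 0.05. Of all genes, 4.46% to 7.47% had such a p, and in LPS+NMN against control 0.283% were called with more and 0.0514% with fewer events. In the other comparisons 0% to 0.257% were called with more and 0% to 0.0428% with fewer, so a count of 0 in 50 is close to the background. In LPS+NMN against control 26 of the 50 had a higher mean log2(events + 1), 15 a lower and 9 the same, with a median difference of 0.01. Of all genes 40.9% were higher and 43.6% lower, with a median of 0. Higher, lower and equal refer to this log2 mean, here and in the lists below. Genes with equal mean events can thus count as higher, such as Calcrl with 3.67 in both groups. Among ligands and processing enzymes only Fap, a membrane protease, was tested, with 2 events in each LPS+NMN and LPS library, 0, 2 and 2 in NMN and none in control (limma adjusted p = 0.194 for LPS+NMN against control).

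Among 14 class B receptors 5 were tested, with 3 higher, 1 lower and 1 equal in LPS+NMN against control. Vipr2, a receptor of vasoactive intestinal peptide, had 3, 9 and 4 events in LPS+NMN, 10, 5 and 11 in LPS, 5, 5 and 10 in NMN and 2, 2 and 3 in control libraries; LPS libraries lay above control, as in 2.52% of all genes, NMN libraries too, as in 2.16%, and LPS+NMN overlapped it. Its smallest adjusted p in the 6 comparisons was 0.18 (limma). Vipr1, the sister receptor, averaged 2.33 ± 0.577 events in LPS+NMN, 2 in LPS, 0 in NMN and 1.33 ± 1.15 in control, and overlapped between LPS+NMN and control (SD, n = 3 each). Calcrl, the receptor of calcitonin gene-related peptide, averaged 3.67 ± 0.577 in LPS+NMN and 3.67 ± 1.15 in control, and Crhr2, a stress hormone receptor, 0.667 ± 1.15 in LPS+NMN and 1.33 ± 1.15 in control.

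Of 10 receptor partners 8 were tested, with 2 higher, 3 lower and 3 equal in LPS+NMN against control. Arrb2, an arrestin that ends receptor signalling, averaged 14.0 ± 1.73 events in LPS+NMN, 9 in LPS, 12.7 ± 2.08 in NMN and 10.7 ± 1.53 in control. Its log2 difference between LPS+NMN and control was 0.36 (limma adjusted p = 0.654). Ramp2, which modifies class B receptors, was at 0 in LPS+NMN and 1.33 ± 1.15 in control, which overlap in control replicate 3. Grk2, a receptor kinase, averaged 2.67 ± 1.15 in LPS+NMN and 3.33 ± 0.577 in control, and Grk6, another, 7.0 ± 1.0 in LPS+NMN and 8 in control (SD, n = 3 each).

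Among 15 G proteins and adenylyl cyclases 7 were tested, 3 higher, 2 lower and 2 equal in LPS+NMN against control. Adcy9, a cyclase, had 6, 2 and 9 events in LPS+NMN and 3, 2 and 4 in control, which overlap. Adcy7, the cyclase known from myeloid cells, averaged 4.33 ± 0.577 in LPS+NMN and 5.67 ± 2.89 in control. Gng2, a G protein gamma subunit, averaged 7.0 ± 1.73 in LPS+NMN and 6.33 ± 1.15 in control, and Gnb2, a beta subunit, 4 in LPS+NMN and 3.67 ± 0.577 in control (SD, n = 3 each).

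All 16 cyclic AMP effectors were tested, 10 higher, 4 lower and 2 equal in LPS+NMN against control, with a median log2 difference of 0.07. Rapgef3, a cyclic AMP-activated exchange factor, had 2 events in every LPS+NMN library and 2, 0 and 2 in control. Crtc1, a coactivator of CREB, averaged 9.67 ± 2.08 in LPS+NMN and 7.0 ± 1.0 in control, and Crtc3, of the same family, 2.33 ± 0.577 in LPS+NMN and 3.67 ± 1.15 in control. Prkaca, a catalytic subunit of protein kinase A, averaged 2 in LPS+NMN and 3.0 ± 1.0 in control (SD, n = 3 each).

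Of 13 tested phosphodiesterases, which break cyclic nucleotides down, 7 were higher, 5 lower and 1 equal in LPS+NMN against control. Pde8a had 2, 6 and 4 events in LPS+NMN, 7, 5 and 8 in LPS, 6, 8 and 3 in NMN and 13, 14 and 7 in control libraries. Every LPS+NMN library lay below every control library, as in 2.48% of all genes, with a log2 difference of -1.33 that did not pass (limma adjusted p = 0.282). Pde4d averaged 2.33 ± 0.577 in LPS+NMN and 4.67 ± 2.89 in control, Pde8b 5.33 ± 1.15 in LPS+NMN and 3.33 ± 0.577 in control, and Pde1a 2 in LPS+NMN and 1.33 ± 1.15 in control (SD, n = 3 each).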

How the data were processed

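RNA was sequenced from 12 BV-2 libraries in 4 groups of 3, assigned from the sample titles. Each deposited file, per the file headers, lists event identifier, type, gene, chromosome, start, end, pattern and strand; the positions are whole numbers, a unit of another kind than counts or levels, as the authors deposited them. Tools in the submitters' processing notes are HOMER, BWA 0.7.12 and MACS2 2.1.0, and the build is GRCm38; how the catalogues were built was not given in the sources used here. Partner lines without the event and 9998 repeated lines were left out. First and last exons were matched by gene, type and pattern, other events by gene, type, start and end. The sequence and forms of 1 alternatively spliced segment are not reported here. Because depth is unknown, no counting error can be given.

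Event numbers were fitted with limma 3.58.1 (R 4.3.3, empirical Bayes with trend and robust options) on log2(events + 1) in 1 model of the 4 groups with 8 residual degrees of freedom, over 11671 genes with at least 1 event in 3 libraries that varied between libraries. The Benjamini-Hochberg adjustment ran over these genes, with 0.05 as the threshold. For Gipr no p is given for LPS+NMN against control. The fit was also run on event numbers shuffled within each gene, with changes put into some genes. The outcome of that run is not given here, and nothing is read from it. The gene, the lists and the tests were chosen with earlier results of these data known. Named genes were, per list, any called or the 4 with the largest difference between LPS+NMN and control, every neighbour, and the 5 highest correlations with Gipr among named genes averaging 1 event or more. Alternatives were 11 other settings and leaving out each of the 12 libraries. Pairs of libraries of a group shared 53.8% to 54.7% of their distinct events (median 54.1%), so none was a copy of another. Pairs of different groups shared nearly as many, 52.2% to 54.6% (median 53.5%).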

Additional observations from a re-analysis of the deposited data

How the results depend on the processing

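Of 23 alternatives, 21 left the Gipr difference of LPS+NMN against control within 1 residual SD (0.443) of its 2.35. With splicing events alone it was 3.37 and with first and last exons alone 1.00. Most of the 21 could not move this difference of group means, so their number is no measure of robustness. These were the filters, the fit without trend and robust moderation, the fit of just the groups compared, the replicate block and leaving out an LPS or NMN library. Leaving out a control library could not move it either, as each had 2 events. LPS against control crossed the threshold in 2 of 23, with first and last exons alone (0.82, limma adjusted p = 0.0202) and with events of at least 2 libraries (1.64, limma adjusted p = 0.00677); Gipr was chosen partly for its low control numbers, so neither is independent evidence, and the second setting leaves out by construction 2 last exons listed in single control libraries. LPS+NMN against LPS (0.18 to 1.73), LPS+NMN against NMN (0.48 to 2.03), NMN against control (0.52 to 1.33) and NMN against LPS (-0.66 to -0.04) kept direction and stayed short of the threshold in all 23, leaving out each library included.

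Over all genes, libraries with the same replicate number did not vary together: the correlations of their deviations ran from -0.027 to 0.022 in 18 pairs. Such correlations over all genes cannot show whether a single gene follows the replicate number. Gipr had its most events in replicate 3 of LPS+NMN (15), LPS (10) and NMN (10). Its SE was 0.278 with a replicate block and 0.324 without. Whether libraries of a number share a batch was not tested. With the replicate block the difference of LPS+NMN against control was 2.35, as without it, which the balanced design fixes in advance. Limma's adjusted p was then 0.142 for LPS against control and 0.918 for LPS+NMN against LPS. In LPS+NMN against control 29 and 3 genes were called with more and fewer events, instead of 33 and 6. Over all 23 alternatives the numbers of genes called with more and with fewer events ran from 3 to 47 and from 0 to 11 in LPS+NMN against control, from 1 to 49 and from 0 to 12 in LPS against control (30 and 5 as reported), and from 1 to 42 and from 0 to 5 in NMN against control (26 and 1 as reported). Fits of just the groups compared called the fewest genes with more events. Leaving out control replicate 1 gave the 49 in LPS against control and the 42 in NMN against control, which was 39 without control replicate 2 or 3. In LPS+NMN against LPS, where 0 were called, 10 were called with more events without LPS replicate 1. Depth is unknown, so an event missing from a catalogue cannot be told apart from one too thinly covered to be listed.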
